A study of Homo sapiens with 18 samples.

Results

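The subunits of respiratory complexes III, IV and V were followed in 18 RNA sequencing libraries from human cancer cell lines. A gene was taken as a member when its symbol began with UQCR, COX4, COX5, COX6, COX7, COX8, ATP5F, ATP5M or ATP5P, or when it was CYC1, MT-CYB, MT-CO1, MT-CO2, MT-CO3, MT-ATP6 or MT-ATP8. The rule uses names only, with no measured value. It found 53 of the 20263 genes counted: 11 of complex III, 20 of complex IV and 22 of complex V, of which 47 are encoded in the nucleus and 6 in mitochondrial DNA. The labels name wild-type MHCC-97H (liver cancer), MDA-MB-231 (breast cancer) and HCT-116 (colon cancer) cells. Each line received DMSO, the solvent, or 20 nM of H3B-8800, a splicing modulator whose target is SF3B1, over 24 h. All groups were kept in high-glucose medium with 10% serum, and each of the 6 groups holds 3 libraries. The labels do not say whether these came from separate cultures, so p-values measure only the spread between the libraries. The series title names glycolysis, and the levels of the respiratory subunits bear on the other main route to ATP.

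Complex III passes electrons from ubiquinol to cytochrome c, complex IV passes them from cytochrome c to oxygen, and both pump protons out of the mitochondrial matrix. Complex V, the ATP synthase, lets protons back in and uses the flow to make ATP. Each complex is built from subunits made in the cytosol and imported, together with a small core made inside the organelle from mitochondrial DNA, so its assembly draws on both genomes.

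Libraries held between 28232315 and 41488278 counts. Levels are given in CPM, in which library size is divided out, with TMM factors that balance composition between libraries. Little set the HCT-116 libraries apart from the MDA-MB-231 ones: 5 of 14234 genes differed between their DMSO groups. All 5 intestinal epithelium markers were at 0 in the libraries labelled MHCC-97H, and their sum lay between 1596 and 1695 CPM of the library total under both other labels, which goes against the MDA-MB-231 label. A list of 4 breast genes did not settle the origin: it summed to 1249 to 1831 CPM under the MHCC-97H label, nearly all KRT17, and to 48.2 to 55.6 under the other labels, nearly all GATA3. Of 8 liver genes, 6 were at 0 counts under the MHCC-97H label, ALB and AFP among them, and the list summed to 4.22 to 5.59 CPM there against 50.7 to 77.9 under the other labels. Genes of epithelial and mesenchymal cells gave a mixed picture. EPCAM reached just 4 counts in total with the MDA-MB-231 label and 16 with the HCT-116 label, while KRT19 averaged 810 and 827 CPM. In the same order FN1 averaged 8722 and 9125 CPM, but VIM only 19.6 and 22.1. Whether the MHCC-97H and HCT-116 labels are right was not tested. Groups are therefore named by their labels only, and the HCT-116 and MDA-MB-231 labels may stand for the same cells.

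Of the 53 members, 47 had enough counts for testing: 41 nuclear and all 6 mitochondrially encoded. The other 6 were close to silent. COX4I2, the lung form of subunit 4, had 0 counts in every library, which allows at most 0.0142, 0.0140 and 0.0144 CPM over the 6 libraries of the MHCC-97H, the MDA-MB-231 and the HCT-116 label (3 counts, counting error only). The heart and muscle forms COX6A2 and COX7A1 had 4, 0 and 0 and 0, 6 and 10 counts in the same order of labels. COX8C, a testis form of subunit 8, had 6, 0 and 0 counts. The pseudogene ATP5F1EP2 and ATP5MGL had at most 2 counts under any label. The summed level of 4 muscle genes did not exceed 0.496 CPM of the library total in any library.

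The balance between the genomes differed between labels by about an order of magnitude. In the DMSO libraries labelled MHCC-97H, the nuclear members took 0.840% ± 0.0172 (SD, n = 3) of all counts and the mitochondrially encoded members 0.758% ± 0.0243. Under the MDA-MB-231 label the nuclear share was 0.381% ± 0.00798 and the mitochondrially encoded share 4.10% ± 0.0394 (n = 3). Under the HCT-116 label they were 0.376% ± 0.00639 and 3.99% ± 0.289 (n = 3). The ratio of mitochondrially encoded to nuclear counts therefore ran from 0.867 to 0.945 in the MHCC-97H libraries, from 10.6 to 10.9 in the MDA-MB-231 libraries and from 10.2 to 11.3 in the HCT-116 libraries. In bulk RNA, fewer cells of a kind and less RNA per cell cannot be told apart.

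After H3B-8800 the ratio was higher under every label and no treated library overlapped its controls. It lay between 1.12 and 1.14 under the MHCC-97H label, between 11.0 and 12.4 under the MDA-MB-231 label and between 11.4 and 13.9 under the HCT-116 label. The parts of the ratio moved differently. With the MHCC-97H label the nuclear share was 0.769% ± 0.00779 and the mitochondrially encoded share 0.870% ± 0.00665 (n = 3). For MDA-MB-231 the nuclear share was 0.389% ± 0.0114 and the mitochondrially encoded share 4.51% ± 0.199. For HCT-116 they were 0.372% ± 0.0259 and 4.61% ± 0.416. These sums are a description and have no test. The 7 mitochondrially encoded genes of complex I, which are not members, took 0.413% ± 0.0158 of counts in the MHCC-97H controls and 0.511% ± 0.00692 after treatment.

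**Figure D1:**
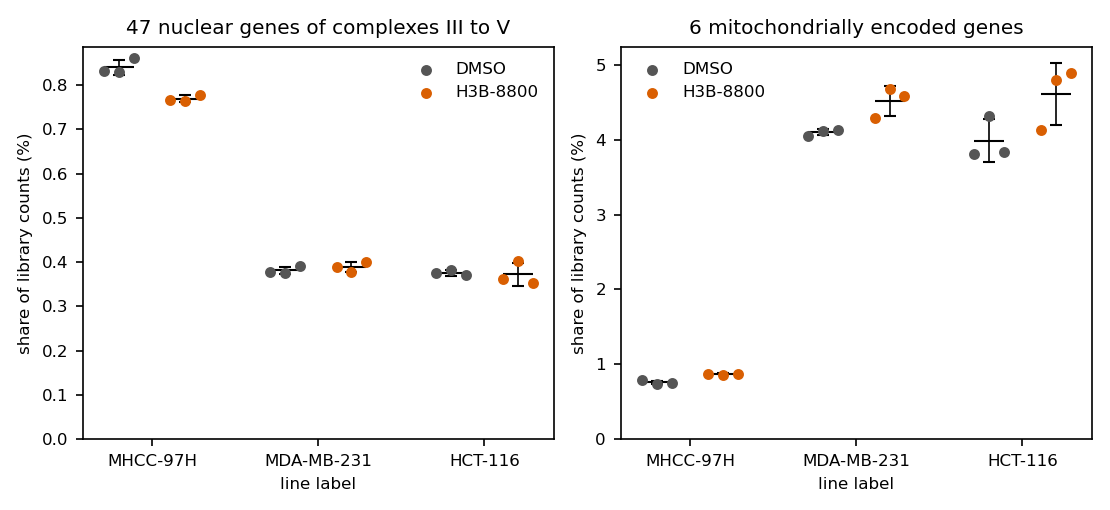
Share of all library counts (%, vertical axis) taken by the 47 nuclear members (left) and the 6 mitochondrially encoded members (right) in each of 18 libraries, by label and treatment; points are libraries, lines are means and error bars SD. The MHCC-97H libraries sit highest for nuclear members and lowest for mitochondrially encoded members, at 0.758% in DMSO against 4.10% and 3.99% under the other labels.

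In the DMSO libraries, every mitochondrially encoded member was called lower under the MHCC-97H label than under either other label (edgeR, Benjamini-Hochberg adjusted p under 0.05 over 14234 genes). The background is high: 82.7% of all genes tested were called between the MHCC-97H and MDA-MB-231 labels, 43.2% of all genes lower, and 82.5% between the MHCC-97H and HCT-116 labels, 43.0% lower. Both comparisons share the MHCC-97H controls. MT-CO1 and MT-CO2 form the catalytic core of complex IV that holds the metal centres. MT-CO1 (chrM:5904-7445) measured 5198, 4966 and 5083 CPM under the MHCC-97H label, 19756, 19784 and 19899.6 under the MDA-MB-231 label, then 19035, 21979 and 19372 under the HCT-116 label. MT-CO2 (chrM:7586-8269) measured 989.7, 978 and 976 CPM, then 5979.7, 6062 and 6032, then 5562, 6273 and 5514. The groups were far apart for both genes, with log2 differences between the MHCC-97H and MDA-MB-231 labels of -1.96 (SE 0.066) and -2.62 (SE 0.070). MT-CO3, the remaining core subunit, differed by -2.39 (SE 0.077).

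MT-CYB encodes cytochrome b, which carries both ubiquinone sites of complex III. It measured 952, 937 and 929.9 CPM under the MHCC-97H label, 2634, 2682 and 2749.8 under the MDA-MB-231 label, then 2286, 2609 and 2399.9 under the HCT-116 label. Its log2 difference between the MHCC-97H and MDA-MB-231 labels, -1.52 (SE 0.068), was the smallest of the 6. MT-ATP6 and MT-ATP8 are the membrane subunits of the ATP synthase made in the organelle, and MT-ATP6 forms part of the proton channel. MT-ATP6 (chrM:8527-9207) measured 90.6, 80.9 and 85.8 CPM under the MHCC-97H label against 739, 816 and 661 under the MDA-MB-231 label. MT-ATP8 (chrM:8366-8572) measured 194, 178 and 183 against 1923, 1989.5 and 2216 CPM. These were the widest differences, at -3.11 (SE 0.10) and -3.46 (SE 0.13) on the log2 scale. The genes overlap by 46 bases, and how the authors counted reads in the overlap is not given in the sources used here. The same holds for reads that also match copies of mitochondrial DNA in the nuclear genome, so the order of these 6 genes is uncertain.

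Per kilobase of transcript, which allows genes to be compared, MT-CO1 led under every label, with 3296, 12849 and 13053 CPM per kb under the MHCC-97H, the MDA-MB-231 and the HCT-116 label. MT-ATP6 had the lowest value of the 6 under each label, at 126, 1085 and 1121 CPM per kb. That place is uncertain, as MT-ATP6 overlaps MT-ATP8 and how reads were split between them is not known. MT-ATP8 took 68.4% of the counts of this pair in the MHCC-97H controls. The highest nuclear member per kilobase in the MHCC-97H controls was UQCRH, at 1009 CPM per kb, followed by ATP5F1B at 911 and COX6A1 at 656. In the MDA-MB-231 controls ATP5F1B led the nuclear members at 328, and UQCRH stood at 166. ATP5F1A and ATP5F1B, which alternate in the catalytic ring of F1, differed per kilobase, at 39.5 against 911 CPM per kb in the MHCC-97H controls. Without division by length they had 188 and 1380 CPM of the library total over the 6 MHCC-97H libraries. The gap per kilobase is wider than that, so part of it comes from the transcript lengths used. Lengths are those of 1 principal transcript a gene, so the use of other transcripts would shift these levels.

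Nuclear members went the other way between labels. The libraries labelled MHCC-97H had 38 of 41 called higher than under the MDA-MB-231 label and 0 lower, with a median log2 difference of 1.41 against -0.09 over all genes. The count was the same against the HCT-116 label, with a median of 1.45. The background of genes called higher was 39.5% in both. UQCRFS1, the Rieske iron-sulfur protein of complex III, was an exception, with 66.5, 74.2 and 73.8 CPM under the MHCC-97H label against 77.6, 74.6 and 79.4 under the MDA-MB-231 label (log2 difference -0.11, SE 0.080, edgeR adjusted p = 0.21). The readthrough gene ATP5MF-PTCD1 and COX7B2 were the other members not called. Between the HCT-116 and MDA-MB-231 labels edgeR called 0 members against a background of 0.0351%, and 1 member, MT-CYB, had an unadjusted p under 0.05 against a background of 4.13%. MT-CYB was higher under the MDA-MB-231 label by 0.14 on the log2 scale.

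Among the nuclear members of complex III the differences ran from -0.11 for UQCRFS1 to 2.60 for UQCRH. UQCRH, the acidic hinge subunit next to cytochrome c1, measured 575, 615 and 638 CPM under the MHCC-97H label against 100.1, 96.1 and 104 under the MDA-MB-231 label, a log2 difference of 2.60 (SE 0.068). UQCRQ, an accessory subunit beside cytochrome b, measured 167, 175 and 175 against 36.3, 30.1 and 32.5 CPM, a difference of 2.39 (SE 0.10). The other small subunits UQCR11, UQCR10 and UQCRB differed by 1.63, 1.24 and 0.24. The core proteins differed by 1.71 (SE 0.064) for UQCRC1 and 0.54 (SE 0.063) for UQCRC2. UQCRHL, a single-exon copy of UQCRH that may share its reads, followed it with a difference of 2.28 (SE 0.13).

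In complex IV the widest difference was in a tissue-restricted form. COX6B2, the testis form of subunit 6B, measured 14.6, 15.2 and 12.1 CPM under the MHCC-97H label against 0.175, 0.228 and 0.264 under the MDA-MB-231 label, then 0.320, 0.284 and 0.166 under the HCT-116 label. Over 6 libraries each it had 2670 counts under the MHCC-97H label, 42 under the MDA-MB-231 label and 58 under the HCT-116 label. Its log2 difference from the MDA-MB-231 label was 5.96 (SE 0.45). That value rests on at most 10 counts in a library under the MDA-MB-231 label, so its size is uncertain. It made up 10.2% ± 1.24 of the counts of the pair COX6B1 and COX6B2 under the MHCC-97H label (n = 3), against 0.289% ± 0.0750 and 0.350% ± 0.145 under the others. COX7B2, the testis form of subunit 7B, did the reverse, with 2.36% ± 0.266 of the pair COX7B and COX7B2 against 9.69% ± 1.22 and 8.66% ± 2.14. That contrast followed COX7B, which was called higher under the MHCC-97H label (1.77, SE 0.079), while COX7B2 was not called against either label. COX7C and COX5B, structural subunits around the catalytic core, differed by 3.00 (SE 0.25) and 2.43 (SE 0.074). The exons of COX6B2 overlap those of AC020922.1 by 1178 bases, and the strand setting of the counting is not given in the sources used here. The same limit holds for other members, as 26 of the 53 share exon bases with another gene. The shared part was 34.5% of exonic length for COX8A, 20.8% for UQCRQ and 13.0% for COX6A1.

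In complex V the nuclear members not tied to a readthrough differed by 0.59 to 1.97 on the log2 scale between the MHCC-97H and MDA-MB-231 labels. ATP5F1B, the catalytic beta subunit of F1, measured 1623, 1695 and 1706 CPM against 596, 592 and 619. The 3 genes ATP5MC1, ATP5MC2 and ATP5MC3 encode the same mature c-ring protein. ATP5MC1 made up 10.2% ± 0.347 of c-ring counts in the MHCC-97H controls and 8.19% ± 0.553 in the MDA-MB-231 controls (n = 3), with no overlap. ATP5MC2 made up 60.9% ± 3.98 and 59.1% ± 2.62, with overlap.

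**Figure D2:**
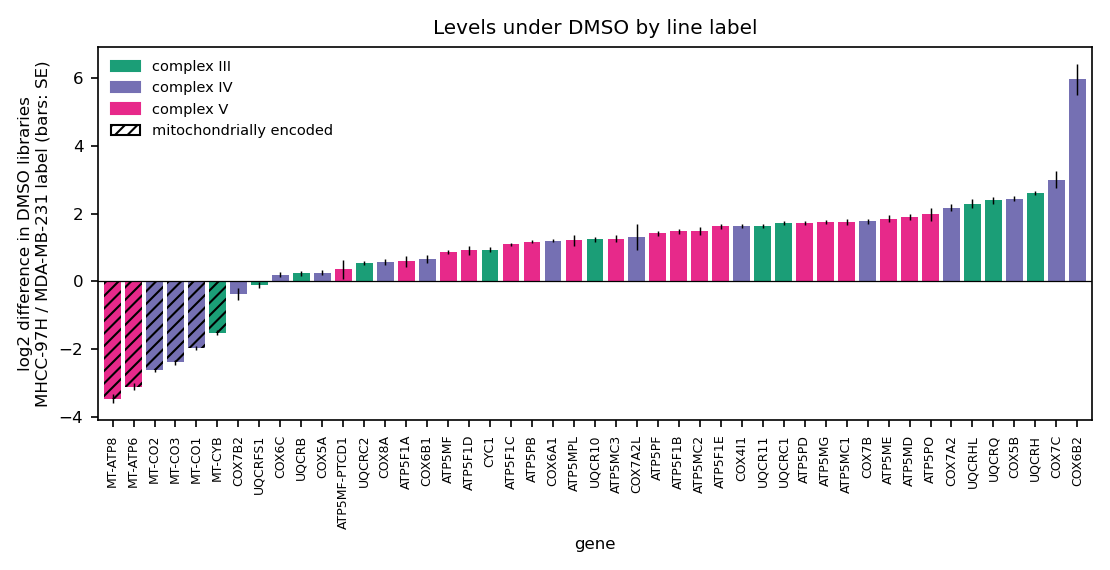
Log2 difference in DMSO libraries, MHCC-97H label minus MDA-MB-231 label (vertical axis), for the 47 members tested, ordered by size (horizontal axis) and coloured by complex; bars start at 0, error bars are SE, and hatched bars are mitochondrially encoded. The hatched bars reach from -1.52 to -3.46, and 38 nuclear members were called higher.

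H3B-8800 was followed by lower levels of many nuclear subunits under the MHCC-97H label. Of 41 nuclear members 18 fell and 0 rose: 6 of 10 in complex III, 6 of 13 in complex IV and 6 of 18 in complex V. Of all genes tested 27.6% were called, 14.7% lower and 12.9% higher. The nuclear median was -0.26 on the log2 scale against -0.06 over all genes, and 40 of 41 had a fold below 0. The controls and treated libraries were fully apart, with treated lower, for 28 nuclear members, against 28.0% of all genes. Treated libraries were fully above the controls for 4 members, against 19.6%: UQCRC2, MT-CYB, MT-CO1 and MT-CO2. With library totals as the only scaling the median of all genes was 0.04, the nuclear median -0.13, and 5 nuclear members were called lower, against 2.43% of all genes. The sizes were modest: called members lay between -0.41 and -0.24.

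In complex III a core protein, the nuclear-encoded electron carriers CYC1 and UQCRFS1, and small subunits fell. UQCRC1, the larger core protein, measured 580.1, 594 and 621 CPM in DMSO and 482, 477 and 499 after H3B-8800. Every treated library lay below every control, and the gene fell by 0.30 on the log2 scale (SE 0.062, edgeR adjusted p = 0.0045). CYC1, the haem protein that hands electrons to cytochrome c, measured 377, 390.5 and 404 and then 315, 296 and 325 CPM, a fall of 0.32 (SE 0.078, adjusted p = 0.0084). UQCRFS1 fell by 0.32 (SE 0.080, adjusted p = 0.0095) and UQCRH by 0.26 (SE 0.064, adjusted p = 0.0092). The accessory subunits UQCR10 and UQCR11 fell as well. UQCRB, UQCRQ and UQCRHL were not called, at -0.08, -0.24 and -0.24. With a trend on GC content and length removed, UQCRFS1 kept its call (-0.38), and the other 5 lost theirs, at -0.05 for UQCRC1, -0.04 for CYC1, -0.12 for UQCRH, -0.19 for UQCR10 and -0.06 for UQCR11.

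UQCRC2, the other core protein, stood apart from its partner; it was chosen after its values were seen. It measured 164, 163 and 159 CPM in DMSO and 174, 198 and 172 after H3B-8800, so that all treated libraries lay above the controls. Its log2 fold of 0.16 (SE 0.063) was not called by edgeR (adjusted p = 0.065). DESeq2, which called 30.2% of all genes, called it at 0.17 (adjusted p = 0.037). It was the single nuclear member with a fold above 0. UQCRC1 made up 78.7% ± 0.863 of the counts of the core pair in the controls and 72.8% ± 1.93 after treatment (n = 3), with no overlap. In the MDA-MB-231 libraries the share went the opposite way, from 62.1% ± 0.734 to 66.1% ± 1.61 (n = 3). Under the HCT-116 label it was 63.5% ± 2.70 and then 65.5% ± 3.04 (n = 3), with overlap. These shares were not corrected for GC content, with which folds correlated at -0.517 under the MHCC-97H label and 0.309 under the MDA-MB-231 label. With the GC and length trend removed, UQCRC1 was at -0.05 under the MHCC-97H label (edgeR adjusted p = 0.31), and 0 nuclear members were called higher. Whether the split of the pair goes beyond that trend was not tested.

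In complex IV, COX4I1 and COX6A1 gave the smallest adjusted p-values. COX4I1, the regulatory subunit 4 that binds ATP, measured 317, 327 and 339 CPM in DMSO and 270.2, 266 and 272 after H3B-8800. It fell by 0.28 (SE 0.050, edgeR adjusted p = 0.0023), with no overlap. COX6A1 measured 356, 387 and 383 and then 316, 302 and 316 CPM, a fall of 0.27 (SE 0.053, adjusted p = 0.0035). COX5B, which binds zinc, fell by 0.26 (SE 0.070, adjusted p = 0.014), and COX6C, COX7A2 and COX8A also fell. The call of COX7A2 (adjusted p = 0.030) was lost without either DMSO replicate 2 or 3 or either H3B-8800 replicate 1 or 2 of this label, with adjusted p from 0.063 to 0.099. COX8A was lost without DMSO replicate 2 or 3 or H3B-8800 replicate 2 (0.061 to 0.075), and COX5B without DMSO replicate 3 or H3B-8800 replicate 2 (0.063 to 0.069). Removal of the GC and length trend took COX5B to -0.05 (adjusted p = 0.68) and COX8A to -0.04 (adjusted p = 0.81).

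In complex V the peripheral stalk, the membrane part and F1 each held falling members. ATP5PD, a subunit of the stalk that holds F1 still, measured 294, 319.5 and 322 CPM in DMSO and 254, 244 and 254 after H3B-8800. It fell by 0.31 (SE 0.050, edgeR adjusted p = 0.0016), the smallest adjusted p of all members. ATP5MG, a small membrane subunit, measured 317, 323 and 347 and then 272, 259 and 272 CPM, a fall of 0.30 (SE 0.057, adjusted p = 0.0031). The treated libraries lay below the controls in both.

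Of the F1 head, ATP5F1B fell from 1623, 1695 and 1706 to 1356, 1355 and 1377 CPM (-0.30, SE 0.070, edgeR adjusted p = 0.0077), a call lost when the GC and length trend was removed (-0.13, adjusted p = 0.087). ATP5F1C, the rotor shaft, fell from 219, 215 and 223 to 183, 182 and 191 CPM (-0.24, SE 0.042, adjusted p = 0.0023). ATP5F1A, ATP5F1D and ATP5F1E were not called, at -0.33 (SE 0.15), -0.34 (SE 0.13) and -0.07. Of the c ring, ATP5MC1 fell by 0.34 (SE 0.077, adjusted p = 0.0067) and ATP5MC2 by 0.41 (SE 0.11, adjusted p = 0.014), and ATP5MC3 was at -0.09. The ATP5MC2 call was lost without DMSO replicate 2 (-0.29, adjusted p = 0.074), the control with the highest value.

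**Figure D3:**
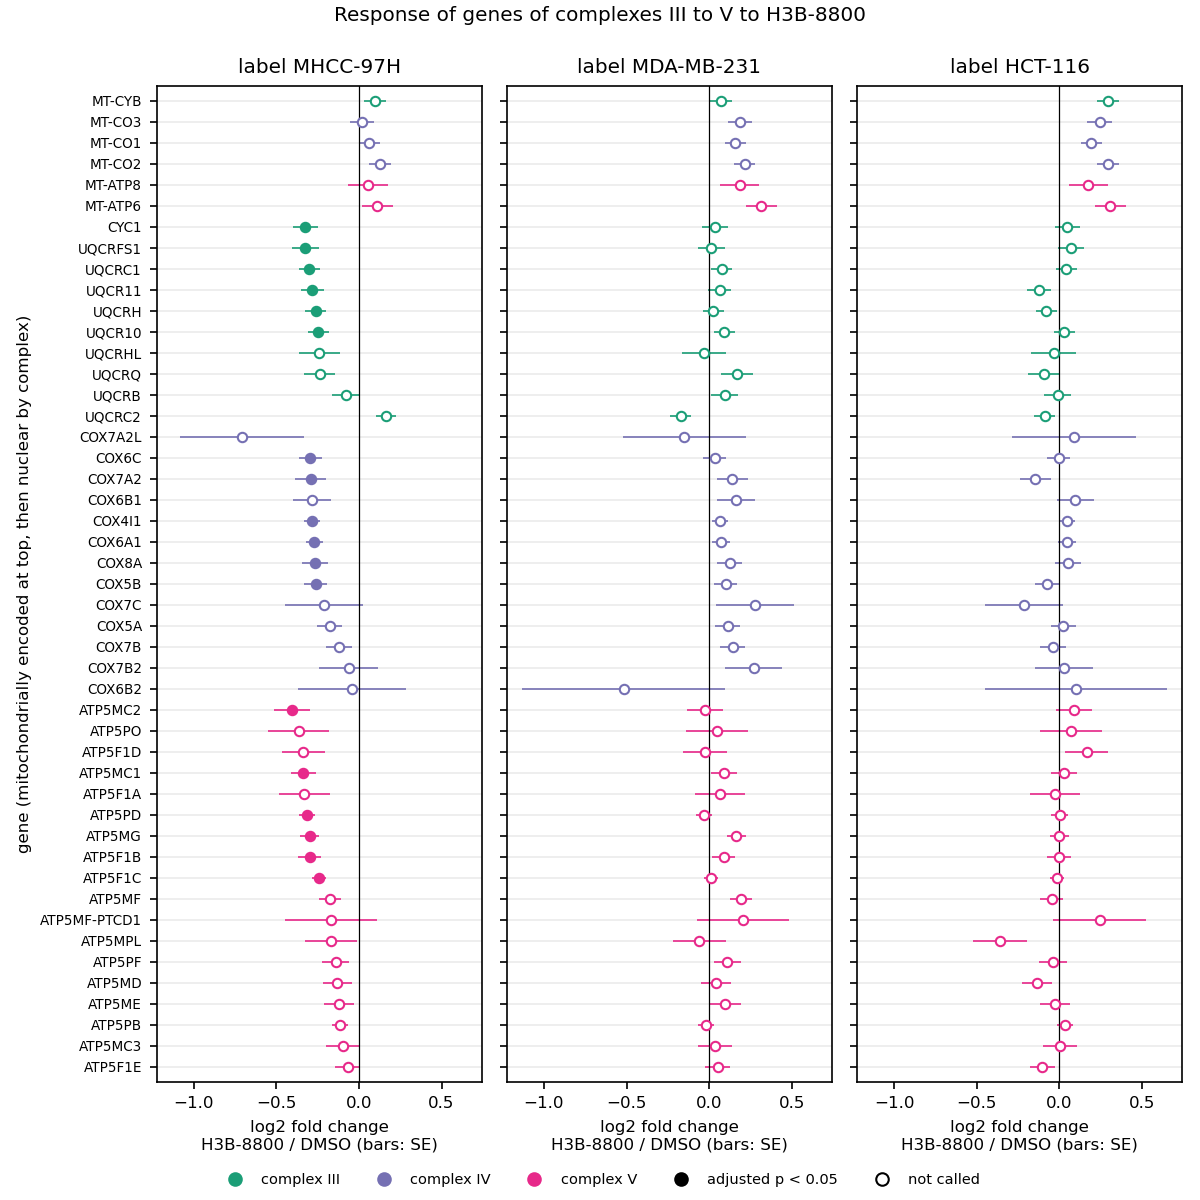
Log2 fold of H3B-8800 against DMSO with SE (horizontal axis) for the 47 members tested, in 1 panel per label; filled points have an adjusted p under 0.05 in edgeR. Under the MHCC-97H label 18 nuclear members are filled and all lie below 0, and the panels for HCT-116 and MDA-MB-231 have 0 filled points.

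The nuclear median stayed below 0 under each scaling tried, but sizes and calls did not all hold. COX4I1, COX6A1, ATP5PD and ATP5MG were called in all 30 alternatives, which include 18 that leave out 1 library each. Most of these 18 drop a library of another label, which acts on this comparison only through the shared spread and scaling. The folds under this label went with base composition and size across 14223 genes: their rank correlation (Spearman) was -0.517 for GC content and 0.358 for length of exons, without a test. The signs were opposite under the other labels, at 0.309 and -0.165 for MDA-MB-231 and 0.18 and -0.116 for HCT-116. The tested nuclear members were short (median 2326 bases against 4932 over all genes) with a median GC content of 47.2% against 48.8%. With a trend on both removed, 14 nuclear members were called lower, against 8.15% of all genes, among them 10 of the 18 that fell. The 8 that lost the call were UQCRC1, CYC1, UQCRH, UQCR10 and UQCR11 of complex III, COX5B and COX8A of complex IV and ATP5F1B. With library totals 5 of the 18 were still called, namely UQCRC1, COX4I1, COX6A1, ATP5MG and ATP5PD.

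The mitochondrially encoded members did not join the fall. Of the 6, 0 were called under the MHCC-97H label, with 0 at an unadjusted p under 0.05 (background 39.2%) and 0 of 6 called by DESeq2. MT-CO2 measured 1061, 1068 and 1091 CPM after treatment, above all controls, with a log2 fold of 0.13 (SE 0.066, edgeR adjusted p = 0.16). MT-CYB measured 1017, 990.2 and 1004 CPM, also above all controls, with a fold of 0.10 (SE 0.066, adjusted p = 0.31). The folds of MT-CO1, MT-CO3, MT-ATP6 and MT-ATP8 were 0.06, 0.02, 0.11 and 0.06. With library totals as the only scaling MT-CYB, MT-CO1 and MT-CO2 were called higher, at 0.23, 0.20 and 0.26, where 17.6% of all genes were called higher. Fitted on the MHCC-97H libraries alone the same 3 genes were called, at 0.15, 0.12 and 0.19, against 17.9% of all genes called higher. MT-ATP8 turned to -0.22 once the trend on GC content and length was removed, and was not called.

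Many of the nuclear members that fell have a motif near their start that is known from promoters of respiratory genes, shown here because these members were called lower in the main fit. RefSeq promoter windows (GRCh38.p14, 250 bases before and 50 after the first listed start) were matched by symbol for 32 of the 41 nuclear members tested. Each was searched on both strands for CCGGAAG (the ETS motif bound by GABP), GCGCATGC (NRF1) and AAGATGGC (YY1), and for GGGCGG (SP1). The lines give 30 bases, 5′ to 3′ on the strand of the gene, around the ETS, NRF1 or YY1 match nearest the start, with matches in capitals. They cover the 9 of 11 fallen members with such a match whose window could be placed in an annotated transcript. Their matches begin between position -97 and position 24, counted from the first transcribed base as 1.
UQCRC1 (YY1, chr3:48609605-48609634, minus strand): actgcagctggAAGATGGCggcgtccgtgg
UQCRH (ETS, chr1:46303641-46303670, plus strand): agtgtgccgcaCTTCCGGccagatcgccgg
UQCR11 (ETS, chr19:1605541-1605570, minus strand): actgtaagtggCTTCCGGgtctgcgcgcac
COX4I1 (ETS, chr16:85799686-85799715, plus strand): ggccttgctctCTTCCGGtcgcgggacacc
COX5B (ETS, chr2:97646046-97646075, plus strand): gcagcttgttcCCGGAAGttttgctgctag
COX6A1 (ETS, chr12:120438086-120438115, plus strand): ttccacttccgCTTCCGGcgctgcggcagt
COX8A (ETS, chr11:63974591-63974620, plus strand): cagctccagaaCTTCCGGccagcgcagcca
ATP5F1C (NRF1 on both strands, chr10:7788146-7788175, plus strand): ggagcttcgGCGCATGCGCgctgaggcctg
ATP5MG (ETS, chr11:118401596-118401625, plus strand): tgcagcgggtcCTTCCGGcgggtgacattc

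The ETS motif was in 13 of the 32 windows (40.6%), against 10.7% of 27305 RefSeq promoters and 14.2% of the 15843 of coding genes. NRF1 was in 6 (18.8%, against 3.27% and 4.26%) and YY1 in 4 (12.5%, against 3.03% and 3.91%). At least 1 of the 3 was in 11 of 15 windows of fallen members and in 7 of 17 windows of members not called, against 20.3% of coding promoters. SP1 was in 20 of 32 (62.5%), against 58.5% of coding promoters. The window of UQCRC2 held none of these letters. The motifs, like the comparison, were chosen after the values were seen, and a match is a description of the sequence only. Of the printed members, UQCRC1, UQCRH, UQCR11, COX5B and COX8A lost their call when the GC and length trend was removed. COX4I1, COX6A1, ATP5F1C and ATP5MG kept theirs. The shares of windows with a motif were not recounted for calls with the trend removed.

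Some members varied between libraries of 1 group far beyond counting error. COX7A2L, which helps complexes III and IV join into supercomplexes, measured 249, 113 and 261 CPM in the MHCC-97H controls and 204, 86.5 and 90.8 after treatment. With the MDA-MB-231 label it measured 53.3, 98.8 and 98.7 and then 58.6, 57.4 and 110.1 CPM. Single libraries thus sat far from the others of their group, in controls and treated alike. Its median coefficient of variation within groups was 35.6%, where counting alone would give 1.64%, against a median of 5.40% over the nuclear members tested. COX7C (19.4%) and ATP5PO (17.9%) also varied well beyond their counting error of 1.82% and 2.24%, while COX6B2 (25.8%) and ATP5MF-PTCD1 (21.0%) had low counts and a counting error of 32.2% and 14.0%. The COX7A2L fold of -0.71 (SE 0.37) under the MHCC-97H label was not called (edgeR adjusted p = 0.18), but was called without H3B-8800 replicate 1, at -1.23 (adjusted p = 0.034). What set these libraries apart was not tested.

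**Figure D4:**
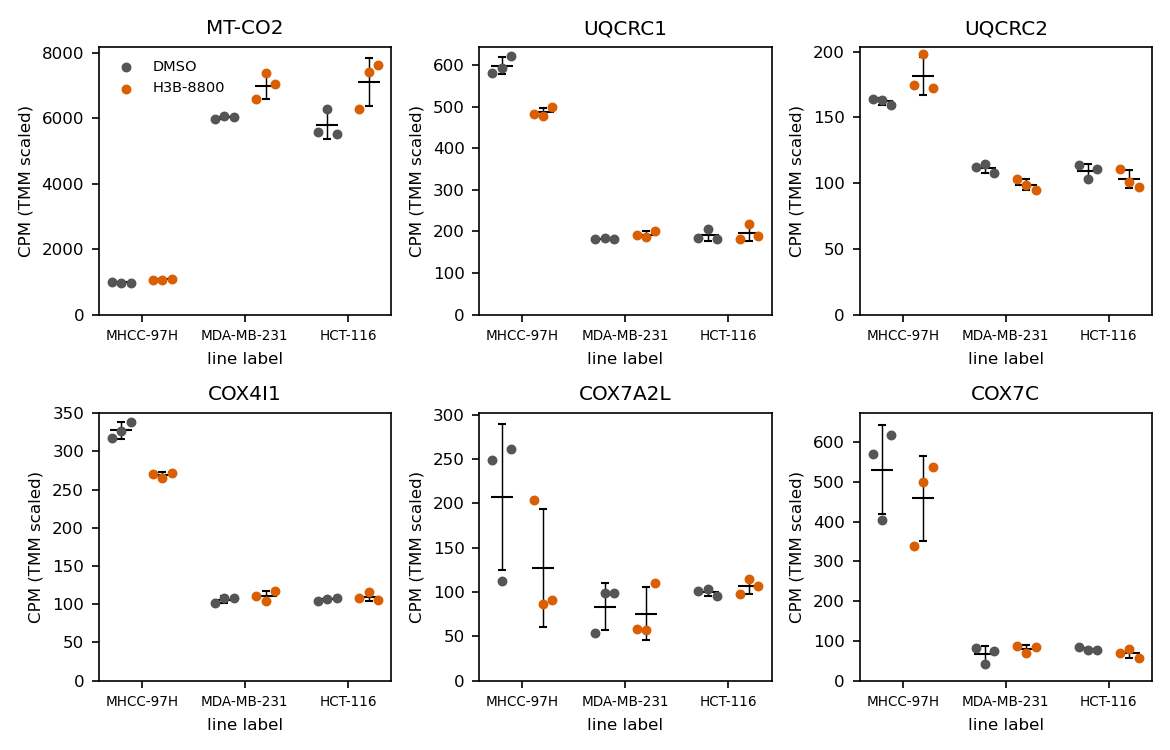
CPM scaled by TMM (vertical axis) of MT-CO2, UQCRC1, UQCRC2, COX4I1, COX7A2L and COX7C in each library, by label and treatment; points are libraries, lines are means and error bars SD. UQCRC1 and COX4I1 are lower in all treated MHCC-97H libraries, UQCRC2 is higher in them, and COX7A2L shows single libraries far from the others of their group.

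Under the MDA-MB-231 label edgeR called 0 of 47 members, against a background of 0.0351%, and DESeq2 also called 0, against 0.344%. At an unadjusted p under 0.05 there were 7, against 7.19% of all genes, and 4 of these were mitochondrially encoded. Treated libraries lay fully above the controls for 12 members, against 8.67% of all genes, and fully below them for 1, UQCRC2, against 9.86%. MT-CO2 measured 5979.7, 6062 and 6032 CPM in DMSO and 6571, 7368 and 7025 after H3B-8800, all above the controls, with a log2 fold of 0.21 (SE 0.066, edgeR adjusted p = 0.52). MT-ATP6 measured 739, 816 and 661 and then 829.6, 1015 and 913 CPM, a fold of 0.32 (SE 0.094, adjusted p = 0.52). The other 4 mitochondrially encoded members were at 0.07 to 0.19. The nuclear median was 0.06, and ATP5MG, called lower under the MHCC-97H label, was at 0.16 (SE 0.057, adjusted p = 0.57). UQCRC2 measured 112, 114 and 108 and then 103, 98.7 and 94.8 CPM, all below the controls, with a fold of -0.17 (SE 0.063, adjusted p = 0.59).

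Under the HCT-116 label edgeR again called 0 members (background 0.0351%), DESeq2 called 0 (background 0.155%), and 6 had an unadjusted p under 0.05, against 4.59%. Of these, 5 were mitochondrially encoded. Treated libraries lay fully above the controls for 2 members, MT-CYB and MT-ATP6, against 3.71% of all genes, and fully below them for 0, against 3.29%. MT-CYB measured 2286, 2609 and 2399.9 CPM in DMSO and 2659, 3228 and 3057 after H3B-8800, without overlap, with a log2 fold of 0.29 (SE 0.066, edgeR adjusted p = 0.38). MT-CO2 measured 5562, 6273 and 5514 and then 6263, 7391 and 7631 CPM, a fold of 0.30 (SE 0.066, adjusted p = 0.38), with control 2 just above treated 1. With a block for the replicate number MT-CYB was called (0.29, adjusted p = 0.047), and without H3B-8800 replicate 1 both MT-CYB (0.37, adjusted p = 0.031) and MT-CO2 (0.38, adjusted p = 0.017) were called. The mitochondrially encoded median was 0.27 and the nuclear median -0.00093. All 6 mitochondrially encoded folds were above 0 under each of the 3 labels with TMM.

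Whether the response differed between labels was tested directly. The comparisons share the MHCC-97H libraries. The effect under the MHCC-97H label was called lower than under the MDA-MB-231 label for 19 members and higher for 1, UQCRC2, against 20.2% of all genes called, 9.67% lower and 10.5% higher. ATP5MG gave a difference of -0.46 on the log2 scale (SE 0.080, edgeR adjusted p = 0.0051), COX4I1 -0.35 (SE 0.071, adjusted p = 0.0080) and UQCRC2 0.34 (SE 0.089, adjusted p = 0.019). The count was 10 to 13 without any 1 of MHCC-97H DMSO replicate 2 (13) or 3 (10), MHCC-97H H3B-8800 replicate 2 (10), MDA-MB-231 DMSO replicate 2 (11) or MDA-MB-231 H3B-8800 replicate 3 (10).

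Against the HCT-116 label 10 members were called lower and 0 higher, where 13.2% of all genes were called, 6.18% lower and 7.01% higher. COX4I1 gave -0.33 (SE 0.071, edgeR adjusted p = 0.017), ATP5PD -0.32 (SE 0.071, adjusted p = 0.018) and UQCRC1 -0.34 (SE 0.088, adjusted p = 0.027). This count moved widely. It was 1 without MHCC-97H DMSO replicate 3 or HCT-116 DMSO replicate 3, 2 without MHCC-97H DMSO replicate 2, MHCC-97H H3B-8800 replicate 2 or HCT-116 DMSO replicate 1, 3 without HCT-116 H3B-8800 replicate 2, 4 without MHCC-97H H3B-8800 replicate 1 and 18 without HCT-116 H3B-8800 replicate 1. Between the HCT-116 and MDA-MB-231 labels edgeR called 0 members (background 0.0351%), with 3 at an unadjusted p under 0.05 (background 4.13%). No mitochondrially encoded member was called in any of these 3 tests, so a difference in their response between labels was not shown.

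Genes that build and express the complexes were read beside the subunits. Their calls, here and in the later paragraphs, are those of the main fit only. The other scalings and the removal of the GC and length trend were read for members alone, so how far these calls hold was not tested. In the MHCC-97H libraries 1 of 9 complex III assembly genes was called lower and 0 higher, 8 of 31 for complex IV and 1 of 7 for complex V, and 0 of the 2 cytochrome c genes were called. Of all genes 14.7% were called lower and 12.9% higher, so the shares for complexes III and V lie near the background. The lower ones included SURF1 (-0.33, SE 0.11) and SCO1 (-0.36, SE 0.13), which serve the haem and copper centres of complex IV, and ATPAF2 (-0.43, SE 0.11), a chaperone of the F1 alpha subunit. Of 25 genes of mitochondrial transcription and RNA handling 1 was called higher and 4 lower, the latter also near the background. The higher one was LRPPRC, which stabilises mitochondrial messenger RNAs, at 155 ± 9.18 CPM in DMSO and 227 ± 7.41 after H3B-8800 (n = 3, log2 fold 0.55, SE 0.082, edgeR adjusted p = 0.0013). POLRMT, the mitochondrial RNA polymerase, was among the lower, at -0.31 (SE 0.077, adjusted p = 0.011). The LRPPRC effect differed from that under the MDA-MB-231 label by 0.83 (adjusted p = 0.0024) and from that under the HCT-116 label by 0.67 (adjusted p = 0.012).

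Of 9 nuclear regulators of respiratory genes, GABPA, the DNA-binding part of GABP, was called higher under the MHCC-97H label, from 16.7 ± 1.91 to 24.2 ± 0.737 CPM (n = 3, log2 fold 0.54, SE 0.15, edgeR adjusted p = 0.015), and 0 were called lower. Its exons overlap those of ATP5PF by 413 bases, and without a known strand setting their reads may be shared. Of 8 genes of membrane insertion and proteolysis, 1, YME1L1, was called higher and 3 lower. The shares over all genes were 12.9% higher and 14.7% lower. Of the 7 other mitochondrially encoded genes counted 3 were called higher, namely MT-ND5 (0.25, SE 0.066), MT-ND4L (0.24, SE 0.071) and MT-ND4 (0.20, SE 0.068). Under the MDA-MB-231 label 0 genes of these lists were called, against 0.0351% of all genes.

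In the controls, genes of mitochondrial expression lay on both sides. POLRMT measured 243 ± 5.64 CPM under the MHCC-97H label against 62.1 ± 3.32 under the MDA-MB-231 label (n = 3), a log2 difference of 1.97 (SE 0.080, edgeR adjusted p = 1.9e-12). LRPPRC measured 155 ± 9.18 against 279 ± 13.2 CPM (-0.85, SE 0.082, adjusted p = 9.3e-08). TWNK, the mitochondrial DNA helicase, measured 2.24 ± 0.352 against 16.4 ± 0.543 CPM (-2.88, SE 0.16, adjusted p = 1.3e-10). Of the 25 genes of mitochondrial transcription and RNA handling 12 were called higher under the MHCC-97H label and 10 lower, near the shares over all genes of 39.5% and 43.2%. All 7 other mitochondrially encoded genes were called lower. CYCS, which encodes cytochrome c, and ATP5IF1, the inhibitor of the ATP synthase, were called higher, by 1.18 (SE 0.095) and 2.62 (SE 0.083).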

How the data were processed

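The deposited table holds read counts per gene made by the authors; its whole numbers and unequal sums show no normalization. Fastp, HISAT2 and GRCh38 are named in the submitters' processing notes. Versions, the counting tool, its annotation and strand setting, and the library kit: not given in the sources used here. Names, overlaps, GC content and lengths came from GENCODE 29 (20224 of 20263 genes matched). The model, in edgeR 4.0.16 under R 4.3.3, used TMM, filterByExpr, 1 mean per group over all 18 libraries and the robust quasi-likelihood test, which left 14234 genes. A call is an adjusted p (Benjamini-Hochberg, over all genes tested) under 0.05. Alternatives used limma 3.58.1 voom, DESeq2 1.42.0, other scalings and filters, a replicate block, removal of a GC and length trend (splines, 5 degrees of freedom) and leaving out each library. The fit and call rule were tested on simulated data. Members and gene lists were chosen with earlier results of these data known. Named members were all mitochondrially encoded ones, isoform sets, the F1 head and those with the smallest p or largest fold in each comparison; UQCRC2, the motifs, the printed stretches, the core-protein pair and principal-transcript lengths (in place of exonic lengths) were chosen after values were seen.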

Additional observations from a re-analysis of the deposited data

Results flagged for a closer look

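The effect of H3B-8800 differed between labels for 20 members when the MHCC-97H label was set against the MDA-MB-231 label (edgeR, difference of log2 folds, adjusted p under 0.05). For complex III these differences were -0.38 for UQCRC1, 0.34 for UQCRC2, -0.34 for UQCRFS1, -0.36 for CYC1, -0.29 for UQCRH, -0.41 for UQCRQ, -0.34 for UQCR10 and -0.35 for UQCR11. For complex IV they were -0.35 for COX4I1, -0.36 for COX5B, -0.34 for COX6A1, -0.33 for COX6C, -0.43 for COX7A2 and -0.39 for COX8A. For complex V they were -0.38 for ATP5F1B, -0.25 for ATP5F1C, -0.43 for ATP5MC1, -0.37 for ATP5MF, -0.46 for ATP5MG and -0.28 for ATP5PD.

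Against the HCT-116 label 10 members differed. The differences were -0.34 for UQCRC1, -0.39 for UQCRFS1 and -0.37 for CYC1 in complex III, and -0.33 for COX4I1 and -0.31 for COX6A1 in complex IV. In complex V they were -0.23 for ATP5F1C, -0.36 for ATP5MC1, -0.50 for ATP5MC2, -0.30 for ATP5MG and -0.32 for ATP5PD. Both sets rest on the same MHCC-97H libraries, and the MDA-MB-231 and HCT-116 libraries share one profile, so the sets are not independent. Neither set has the GC and length trend removed, which ran in opposite directions under the MHCC-97H label and the other labels.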

How the results depend on the processing

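Counts of members called after H3B-8800 under the MHCC-97H label ran from 13 to 20 when 1 library was left out, against 18. They came to 9 with library totals (4 higher, 5 lower), where 17.6% of all genes were called higher and 2.43% lower. With only the groups compared fitted they came to 25 (4 higher, 21 lower), where 17.9% of all genes were called higher and 13.6% lower. Under the MDA-MB-231 label the counts stayed at 0, and under the HCT-116 label they ran from 0 to 2, with 1 under a replicate block. The MHCC-97H effect minus the MDA-MB-231 effect gave 10 to 22, with 2 on library totals and 10 without the GC and length trend. The MHCC-97H effect minus the HCT-116 effect gave 1 to 18, with 5 on relative log expression factors, 3 on upper-quartile factors, 1 on library totals, 0 when only the groups compared were fitted and 6 without the trend. The MDA-MB-231 minus HCT-116 effect gave 0 to 0. Between controls the counts ran from 42 to 45, from 41 to 45 and from 0 to 0. In the main fit the shares of all genes called between controls were 82.7%, 82.5% and 0.0351%. For the responses they were 27.6%, 0.0351% and 0.0351%, and for the differences of effects 20.2%, 13.2% and 0.0351%.

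The summed level of the nuclear members differed under the MHCC-97H label by -0.13 on the log2 scale (-0.14 to -0.11 without 1 library) and by -0.26 with TMM, and that of the mitochondrially encoded members by 0.20 (0.19 to 0.23) and by 0.068 with TMM. Without 1 library the nuclear sum ran from 0.0084 to 0.05 under the MDA-MB-231 label and from -0.07 to 0.02 under the HCT-116 label, and the mitochondrially encoded sum from 0.11 to 0.17 and from 0.16 to 0.28. TMM factors were 0.860 to 0.891 in MHCC-97H controls and 0.952 to 0.967 in treated libraries.

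Signs turned for members that were not called. Under the MHCC-97H label these were MT-ATP8 without the trend (-0.22, and -0.22 with the block), COX6B2 on library totals (0.093), fitted alone (0.020), without the trend (0.19, and 0.19 with the block) and without 1 library (-0.13 to 0.026), COX7B on library totals (0.012), COX7B2 on library totals and without 1 library (0.071, and -0.15 to 0.022), ATP5MC3 likewise (0.040, and -0.16 to 0.018) and ATP5F1E on library totals (0.065). ATP5PD turned under the MDA-MB-231 label without the trend (0.0085, and 0.0081 with the block). Under the HCT-116 label ATP5PD took -0.00077 on relative log expression factors, -0.015 on library totals, -0.00096 in DESeq2, -0.00036 fitted alone and -0.041 to 0.035 without 1 library. ATP5MG took 0.00054 on upper-quartile factors, 0.039 without the trend (0.031 with the block) and -0.070 to 0.048 without 1 library. COX4I1 ran from -0.00076 to 0.072, COX6A1 from -0.028 to 0.085 and UQCRC1 from -0.045 to 0.10, each without 1 library. The cause was not tested.

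The labels number replicates, but do not say what a number marks. Across all 14234 genes same-numbered control and treated libraries correlated at -0.05, 0.06 and 0.02 (MHCC-97H), 0.12, 0.07 and 0.02 (MDA-MB-231) and 0.05, 0.19 and 0.03 (HCT-116), so the numbers were not read as pairs. Among the 9233 genes of at least 10 CPM the HCT-116 values were 0.18, 0.45 and 0.13. At 30 CPM or more (5720 genes) they were 0.353, 0.559 and 0.147, against -0.46 to 0.295 between different numbers. Pairing under the HCT-116 label is therefore uncertain. The replicate block gave 22 calls under the MHCC-97H label, where the main fit called 27.6% of all genes. The share of all genes called with the block is not given here. Of the members named, it added MT-CYB under the HCT-116 label and COX6B1 (-0.28), ATP5F1D (-0.34) and UQCRC2 (0.16) under the MHCC-97H label.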

Other observations

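PNKD, listed here among genes of complex IV assembly, was the single gene of the lists called under the HCT-116 label, at 60.6 ± 1.59 CPM in DMSO and 122.6 ± 5.02 after H3B-8800 (n = 3, log2 fold 1.02, SE 0.061, edgeR adjusted p = 5.6e-07). The MDA-MB-231 controls measured 118 ± 5.78 CPM, so the HCT-116 controls were the group that stood apart. Under the MHCC-97H label the gene fell by 0.37 (SE 0.061, adjusted p = 0.0017).

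PPARGC1A, a coactivator of mitochondrial genes, measured 3.04 ± 0.655 CPM in the MHCC-97H controls (n = 3) and had 0 counts in the MDA-MB-231 controls.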
